A study of Macaca fascicularis with 28 samples.

Results

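The genes of vesicle fusion and transmitter release were followed through 6 tissue conditions of the macaque tongue. They were taken by symbol, as every gene whose name begins with SYT, STX (STXBP included), VAMP, CPLX, SV2, UNC13, RAB3, RIMS, SYP or DOC2, with SYN followed by a single digit or with SNAP followed by a digit, using the name in the study's own taste bud gene list where it gave one and the platform's annotation elsewhere. This gave 71 genes of 14840 named on the array, each read from whichever of its probe sets was brightest on average across the 28 arrays. The prefix RAB3 also took in 10 genes numbered RAB30 to RAB39A, which are not forms of RAB3 and are given apart below.

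In neurons and endocrine cells, a vesicle SNARE protein (a VAMP) winds together with SNAREs of the plasma membrane (a syntaxin and SNAP25), and this zipper draws the membranes into fusion. UNC13 and RIM proteins and the small GTPase RAB3 dock and prime the vesicle, complexin clamps the partly closed zipper, and synaptotagmin releases it when calcium rises. In taste buds, type III cells form conventional synapses with vesicles on the afferent nerve, whereas type II receptor cells release ATP through channels and have no such vesicle clusters.

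Taste buds (TB) and nearby lingual epithelium without taste buds (LE) had been cut from frozen tongue sections of Macaca fascicularis by laser capture, about 5000 cells a sample pooled over several sections, and each pool was hybridised to a rhesus macaque array of 52024 probe sets. A first set of 20 arrays held TB of the circumvallate papillae at the back of the tongue (CV TB, 4 samples), LE beside those papillae (4 samples), TB of the fungiform papillae at the front (FG TB, 6 samples) and LE beside those (6 samples). All came from 6 animals (4 females and 2 males, 2.6 to 4.5 years), and the 4 CV animals also gave FG tissue. A second set of 8 arrays held the top and the bottom fraction of CV TB from 4 other animals (3 females and 1 male, all 3 years old). The fractions were processed apart from the whole buds, so tissue and array set cannot be told apart between them, and they are tested only against each other. These are pools of many cell types, in which fewer cells of a type and less RNA per cell cannot be told apart.

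Array medians ran from 13.6 to 16.8 units, and between 37.3% and 40.8% of probe sets were at or above 25 units, depending on the sample. The summed level of 7 type II taste cell genes was 11280 to 15500 units in the 10 TB samples and 148.5 to 299 units in the 10 LE samples. The reverse held for 8 genes of differentiated keratinocytes, with 60370 to 83960 units in LE and 2770 to 19540 units in TB. The highest TB sum of keratinocyte genes was in the FG TB sample of animal 4. The 7 type III cell genes separated the tissues less, at 1368 to 3072 units in CV TB against 1090 to 1448 units in its LE and 856 to 1885 units in FG TB against 694 to 1354 units, with 2 of 5 tested higher in each papilla and 1 (NCAM1) lower in CV TB. The 3 type I cell genes summed to 514.5 to 1345 units in CV TB, mostly SLC1A3, against 63.2 to 149.5 units in its LE, but to only 51.2 to 199.8 units in FG TB against 95.2 to 272 units, with 1 of 2 tested higher in CV TB and 1 of 2 (ENTPD2) lower in FG TB. The 5 measured genes of nerve fibers and Schwann cells (NEFH, PRPH, STMN2, SOX10, S100B) summed to 56.9 to 123 units in TB and 59.1 to 100.5 units in LE, and none of the 5 reached the level needed for a test in the first set. The 4 measured skeletal muscle genes summed to 32.6 to 370.5 units in CV TB and 37.8 to 84.4 units in its LE. In FG TB they summed to 37.0 to 2490 units and in its LE to 45.8 to 8335 units, both highest in animal 3. Fibroblast genes (6) summed to 631 to 3874 units in CV TB and 864 to 2122 units in its LE. In FG TB they summed to 739 to 3592 units and in its LE to 718.5 to 4257 units.

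A gene was tested where its probe set reached 25 units in at least 4 samples, with limma on log2 intensity and the animal as a block, two-sided, and a call meant an adjusted p no higher than 0.05, adjusted over every probe set tested. Of the 71 genes, 56 could be tested in the first set and 45 between the fractions. The 15 untested in the first set (DOC2A, RAB33A, RAB39A, SNAP91, STX2, SV2A, SV2C, SYT3, SYT6, SYT9, SYT10, SYT14, SYT16, SYT17, SYTL2) had group means of no more than 20.4 units in TB and LE and of no more than 25.4 units in the fractions. Of 41 core genes sought by name, 14 did not match a probe set and are not analysed here, among them SNAP23, VAMP3, SYT2, SYT7, UNC13A, SYP, SYN1, CPLX1 and RIMS1.

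**Figure D1:**
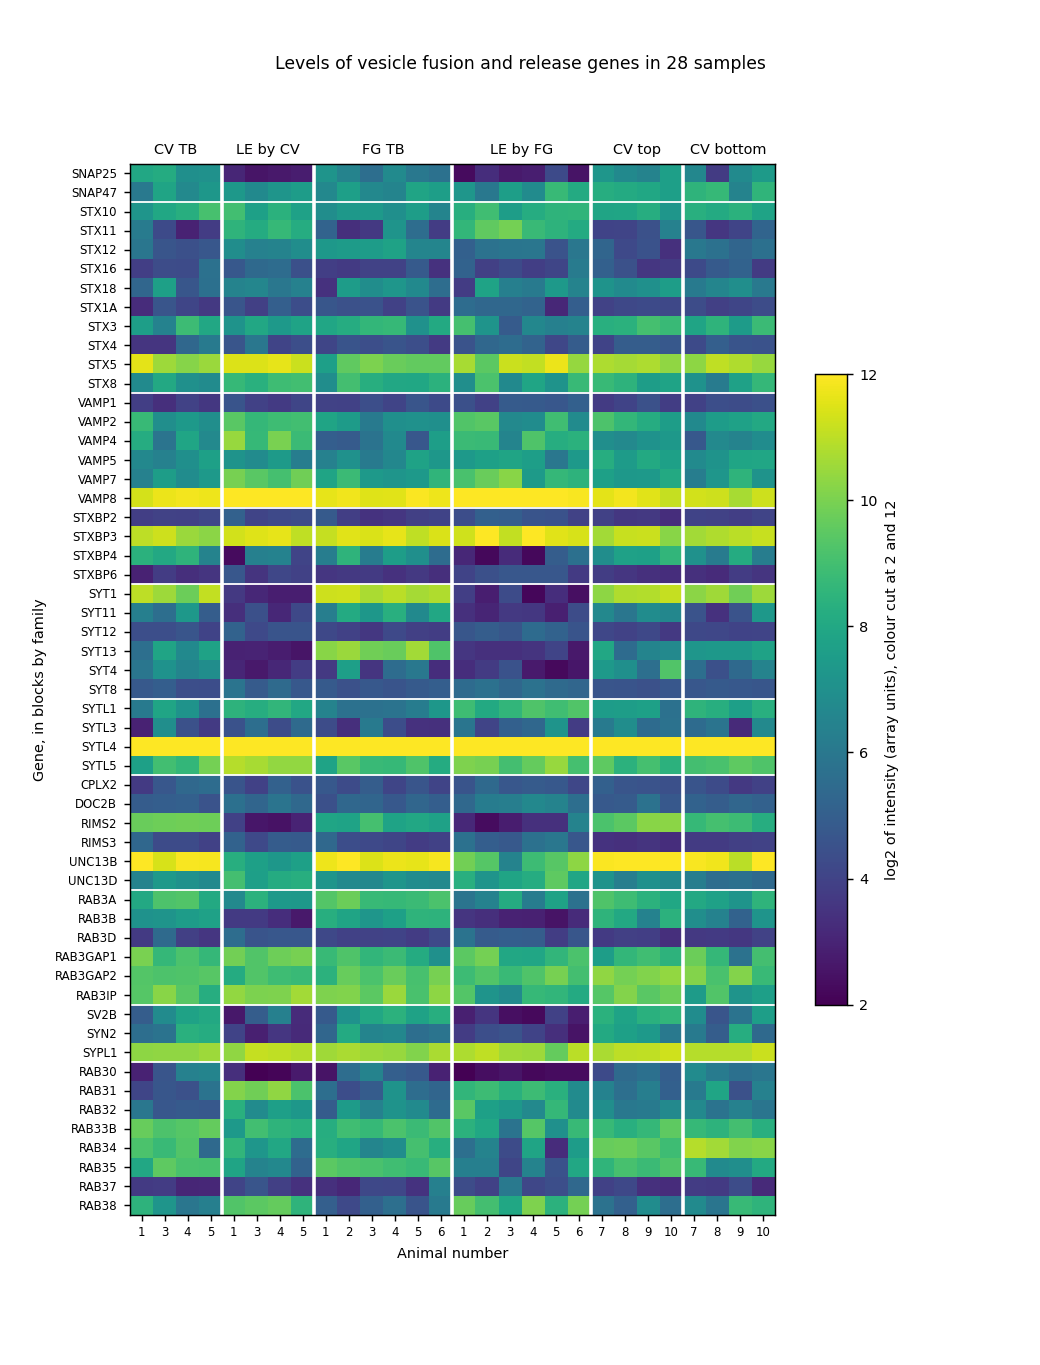
Log2 intensity of the genes tested in the first array set and described here (rows, in blocks by family) in each of the 28 samples (columns, by tissue and animal number), with the colour cut at 2 and 12. VAMP8, STXBP3, SYPL1 and SYTL4 are bright in every tissue, whereas SYT1, RIMS2 and SNAP25 are dark in both LE groups and bright in the TB columns, apart from RIMS2 in 1 LE sample and SNAP25 in 1 bottom fraction.

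In CV TB, 13 of the 56 tested genes were higher and 13 lower than in adjacent LE, where 24.9% and 16.8% of all tested named genes were called in those directions. In FG TB, 18 were higher and 18 lower, against 26.9% and 19.3% of all named genes. That split became 16 higher and 27 lower when each array was centred on the median of its tested probe sets. The genes that rose in both papilla types numbered 13 (all 13 of the CV list and 13 of the 18 in FG), those that fell in both numbered 11 (of 13 in CV and 18 in FG), and 19 genes were called in neither. The 13 include RAB35 and the 11 include VAMP2, for which other probe sets were called the opposite way. The share of all named genes called alike in both papillae was not computed, so these counts are a description only. Of the 71 genes, 17 stand on the study's taste bud list, which was drawn from these samples by a TB level at least 5-fold above LE. Their direction against LE is therefore not independent evidence, and their median log2 change (3.07 in CV and 3.20 in FG) is given as a description only.

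Outside that list, the direction was mostly downward. The list had taken out genes higher in TB in these same samples, so the direction of the rest is not independent evidence either. Among the 39 tested genes not on it, 0 were higher in CV TB and 12 were lower, against 12.1% higher and 20.2% lower of all named genes off the list. At an unadjusted limma p under 0.05, 1 of the 39 was higher and 14 were lower in CV TB. In either direction, 3868 of 9150 named genes off the list were under that p. The methods' t-test after Benjamini-Hochberg adjustment called 0 of the 39 higher and only 1 lower in CV TB. In FG TB 2 of the 39 were higher (RAB3A and STX12) and 17 were lower, against 14.7% and 23.2%. The adjusted t-test called 2 higher and 10 lower there. The median log2 change of the 39 was -0.595 in CV and -0.645 in FG, where that of all tested genes off the list was -0.15 and -0.07. Differentiated keratinocyte genes moved the same way as the genes that fell (6 of 8 lower in CV TB and 7 of 8 in FG TB, median log2 changes of -5.69 and -5.16), and their part in those falls was not tested. Medians over the tested probe sets were themselves 0.22 higher (log2) in CV TB and 0.44 higher in FG TB than in LE.

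**Figure D2:**
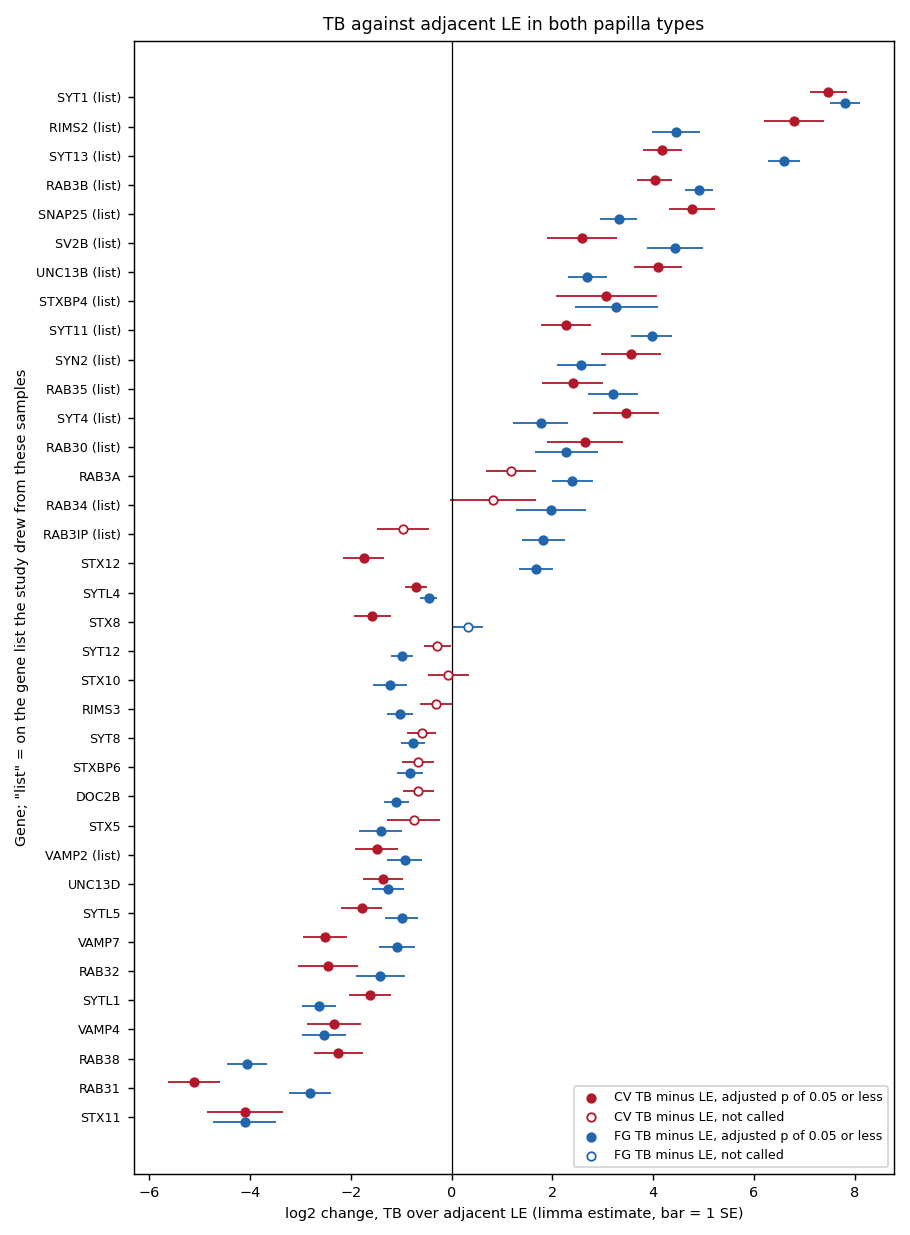
Log2 change from LE to TB (limma estimate, bar 1 SE) for genes described here and called in at least 1 papilla type, in CV (red, 4 animals) and FG (blue, 6 animals). Filled points are calls and open points are not; STX12 is the only gene with filled points on opposite sides of 0.

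SNAP25, whose helices bind both the syntaxin and the VAMP, measured 257, 282, 126 and 132 units in the 4 CV TB samples and 5.89 to 8.37 units in the adjacent LE. In FG TB it had a lowest, median and highest level of 48.4, 77.1 and 145 units, against 4.84, 6.88 and 18.9 units in LE. Neither TB group overlapped its LE, and every LE sample lay below 25 units. The log2 changes were 4.76 ± 0.45 (SE) in CV and 3.32 ± 0.37 in FG (adjusted p = 3.64e-06 and 1.17e-05). With levels under 25 units raised to 25, SNAP25 was at least 7.46-fold higher in CV TB and at least 3.15-fold higher in FG TB. The probe set has that name from the study alone, since the platform's annotation gives it to DPYSL3, and no second SNAP25 probe set was named. SNAP47, a widely expressed relative, had log2 differences of -0.23 ± 0.45 and -0.26 ± 0.37 and was not called in either papilla.

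By their brightest probe sets, the tested syntaxins of the plasma membrane were not called with it. STX1A, the neuronal partner of SNAP25, had group means of 16.1 units in CV TB and 20.4 units in FG TB, against 23.3 and 33.8 units in LE, and was not called (log2 changes of -0.57 ± 0.47 and -0.60 ± 0.38). STX3, used at the apical membrane of epithelia and at ribbon synapses, averaged 250 ± 159 units (SD) in CV TB and 291 ± 103 units in FG TB, with log2 changes of 0.13 ± 0.68 and 1.33 ± 0.55 that were not called (adjusted p = 0.897 and 0.0664). A dimmer STX3 probe set was called higher in FG TB (1.98 ± 0.42, adjusted p = 0.00215; 32.6 against 7.55 units) and not in CV TB (1.21 ± 0.51, adjusted p = 0.0818). STX4 averaged 33.0 units in CV TB and 31.1 units in its LE, and was not called in either papilla. Of the 10 tested syntaxins, 3 fell and 0 rose in CV TB, where 16.8% of all named genes were lower and 24.9% higher. In FG TB 3 fell and 1 rose, where 19.3% were lower and 26.9% higher. At an unadjusted p under 0.05, 3 of the 10 differed in CV and 5 in FG, where 5591 and 5976 of 11055 named genes did.

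STX11 had the largest fall among them in both papillae. It is a syntaxin without a transmembrane segment, known for its role in the killing granules of lymphocytes. It measured 71.85, 18.95, 7.83 and 13.6 units in CV TB and 358, 288, 411 and 293 units in LE. In FG it ran from 10.3 through a median of 25.2 to 146 units in TB and from 274 through 416 to 954 units in LE. TB and LE did not overlap in either papilla. The highest FG TB value was that of animal 4, the FG TB sample with the highest sum of keratinocyte genes. The FG TB sample with the next highest sum (animal 3, 11150 units) had 12.7 units of STX11. A link between that sum and STX11 was not tested. The log2 changes were -4.10 ± 0.76 in CV (adjusted p = 0.000915) and -4.11 ± 0.62 in FG (adjusted p = 0.000179). The syntaxins of the Golgi and endosomes STX5 (-1.41 ± 0.43) and STX10 (-1.22 ± 0.34) fell in FG and were not called in CV, and STX8 (-1.57 ± 0.37) fell in CV and was not called in FG. The difference between the papillae's changes was not called for any of the 3. STX16 and STX18 were not called.

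The VAMPs are the SNAREs on the vesicle side, and 3 of the 6 tested (VAMP2, VAMP4 and VAMP7) were called lower in each papilla by their brightest probe set, against 16.8% of all named genes in CV and 19.3% in FG. VAMP8, a SNARE of secretory granules and late endosomes, had group means of 3246 ± 413 units in CV TB, 3330 ± 366 units in FG TB and 4575 ± 661 and 4341 ± 296 units in the LE beside them, and was not called. Its second probe set was called lower in both papillae (log2 -1.495 ± 0.33 in CV, adjusted p = 0.00296, and -0.93 ± 0.27 in FG, adjusted p = 0.0136). VAMP7, a SNARE of lysosomes and late endosomes, fell from 783 ± 206 to 140 ± 49.7 units in CV (log2 -2.51 ± 0.44, adjusted p = 0.000577) and from 587 ± 371 to 254 ± 124 units in FG (-1.08 ± 0.36). VAMP4, of the trans-Golgi, fell in CV (-2.33 ± 0.54) and in FG (-2.53 ± 0.44), and its second probe set was called lower in CV alone (-3.43 ± 0.62 in CV; -0.88 ± 0.50, adjusted p = 0.174, in FG). The FG call of VAMP7 was lost without animal 1, 3 or 5, with an adjusted p of up to 0.103. VAMP1 and VAMP5 were not called in either papilla.

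VAMP2, the synaptic VAMP, gave opposite answers from its 2 probe sets. The brighter measured 431, 124, 167 and 123 units in CV TB and 703, 401, 476 and 506 units in LE, which overlapped, and was called lower (log2 -1.49 ± 0.43, adjusted p = 0.0157). In FG it ran from 68.5 through 131 to 231 units in TB and from 105 through 299.7 to 703 units in LE, and was again called lower (-0.93 ± 0.35, adjusted p = 0.0468). Both calls depended on single animals (lost without 3, 4 or 5 in CV and without 1, 2, 3 or 5 in FG, with adjusted p up to 0.0625 and 0.15). The dimmer probe set, named VAMP2 by the study and HNF4G by the annotation, averaged 107 units in CV TB and 69.1 units in FG TB against 12.4 and 7.80 units in LE, and was called higher by 3.21 ± 0.53 in CV and 3.20 ± 0.43 in FG (log2). No direction is given for VAMP2 for that reason, although the counts of lower genes above include it by its brighter probe set.

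Among the proteins that bind syntaxins, STXBP3, found in most tissues, averaged 1778 units in CV TB and 2686 units in FG TB and was not called against LE, although the dimmest of its 3 tested probe sets was called higher in FG TB (0.60 ± 0.22, adjusted p = 0.0445). STXBP2, the form that pairs with STX11 in lymphocytes, had group means of 15.8 to 24.8 units in TB and LE.

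STXBP4 (Synip), known from insulin-regulated fusion in mouse fat cells, was on the study's list. It measured 331, 259, 365 and 90.0 units in CV TB and 4.84, 81.2, 87.0 and 16.6 units in LE, which came close but did not overlap. Across FG TB it ran from 46.3 through 99.9 to 360 units and in LE from 4.58 through 9.04 to 51.3 units, with overlap. The log2 changes were 3.07 ± 1.00 and 3.27 ± 0.82 (adjusted p = 0.0283 and 0.00628), and the CV call was lost without animal 1, 4 or 5 (adjusted p up to 0.203).

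Synaptotagmin 1 had the widest TB to LE difference of all 71 genes. SYT1, the fast calcium sensor of synaptic vesicles, measured 2040, 1496, 855 and 2151 units in CV TB and 12.6, 8.76, 7.16 and 7.23 units in LE. The FG TB samples ran from 1592 through 1904 to 2506 units and in LE from 4.55 through 8.60 to 19.3 units. No LE sample of either papilla reached 25 units and no TB sample fell under 855. The log2 changes were 7.47 ± 0.37 in CV and 7.80 ± 0.30 in FG (adjusted p = 6.37e-09 and 2.9e-10), or at least 61.6-fold and 79.1-fold with low levels raised to 25. Its 3 other probe sets were called higher too, with log2 changes of 6.51, 3.79 and 3.24 in CV and 6.05, 4.66 and 4.11 in FG.

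Further synaptotagmins of the study's list rose in both papillae. SYT13, a form that does not bind calcium, measured 50.3, 232, 109 and 218 units in CV TB and 5.94 to 7.96 units in LE (log2 4.18 ± 0.39), and its FG values are given with the comparison of papillae. SYT11, another form without calcium binding, measured 79.6, 48.55, 159 and 31.1 units in CV TB against 10.2, 21.9, 8.68 and 17.9 units in LE, with no overlap (2.28 ± 0.49, adjusted p = 0.00279). In FG, SYT11 ran from 77.8 through 204 to 321 units in TB and from 7.43 through 11.3 to 20.1 units in LE (3.97 ± 0.40).

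SYT4, found on dense-core vesicles, was clear in CV and variable in FG. It measured 61.3, 138, 90.6 and 121 units in CV TB and 6.36 to 13.7 units in LE (log2 3.46 ± 0.66, adjusted p = 0.00112). Its FG TB values ran from 9.91 through 29.6 to 201 units, overlapping LE at 4.78 through 8.28 to 22.7 units, with 5 of 6 animals higher in TB (1.76 ± 0.54, adjusted p = 0.0179). That call was lost without animal 2, 4 or 5 (adjusted p up to 0.0979).

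The remaining synaptotagmins were dim. SYT12 (15.5 against 31.2 units) and SYT8 (27.0 against 46.1 units) fell in FG TB, by -0.98 ± 0.21 and -0.77 ± 0.23 on the log2 scale, and were not called in CV. The other 7 (SYT3, SYT6, SYT9, SYT10, SYT14, SYT16, SYT17) were not tested. The synaptotagmin-like genes, whose products tie RAB27 to membranes of secretory cells, had 3 of 4 tested lower in each papilla, against 16.8% and 19.3% of all named genes. SYTL4 (granuphilin) averaged 5323 ± 494 units in CV TB against 8679 ± 154 units in LE, and fell by 0.71 ± 0.21 in CV and by 0.46 ± 0.17 in FG (log2). SYTL1 fell by 1.62 ± 0.41 in CV and by 2.63 ± 0.34 in FG, and SYTL5 by 1.79 ± 0.40 in CV and by 0.99 ± 0.33 in FG. None of the 3 dimmer SYTL5 probe sets tested was called in FG (the next brightest at -0.86 ± 0.49, adjusted p = 0.180).

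Of the priming genes, UNC13B and RIMS2 rose and their tested relatives were lower or not called. UNC13B (Munc13-2), which opens the syntaxin and primes vesicles, measured 4683, 2684, 3859 and 3748 units in CV TB and 306, 208, 158 and 208 units in LE. In FG TB it ran from 2851 through 3350.2 to 4216 units and in LE from 88.4 through 673 to 1263 units. It was plainly measured in all LE samples as well, and TB and LE did not overlap. The log2 changes were 4.10 ± 0.48 in CV and 2.69 ± 0.39 in FG (adjusted p = 1.95e-05 and 0.000121), a 17.2-fold and a 6.45-fold difference.

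RIMS2, a scaffold of the active zone that binds RAB3 and UNC13, measured 850, 897, 924 and 893 units in CV TB and 15.2, 6.07, 5.61 and 8.08 units in LE. The FG TB samples ran from 210.4 through 230.0 to 534 units and in LE from 5.02 through 9.66 to 87.9 units. The groups did not overlap, and the 4 CV TB values had a SD of 30.3 units. The log2 changes were 6.79 ± 0.59 in CV and 4.45 ± 0.48 in FG (adjusted p = 1.52e-06 and 8.28e-06), at least 35.6-fold and 8.55-fold. The LE value of 87.9 units was that of animal 6, the only LE sample over 25 units, and RIMS2 in LE was otherwise 5.02 to 10.6 units beside FG papillae.

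UNC13D (Munc13-4), the form of blood cells and lung secretory cells, went down in TB, by 1.36 ± 0.39 in CV and by 1.27 ± 0.32 in FG (log2), and its CV call was lost without animal 1 or 4 (adjusted p up to 0.129). RIMS3 and DOC2B fell in FG TB (-1.03 ± 0.26 and -1.10 ± 0.25) from LE levels of 42.1 and 72.3 units and were not called in CV TB. CPLX2, a complexin, had group means of 31.5 units in CV TB, 24.1 units in its LE, 22.6 units in FG TB and 28.0 units in its LE and was not called.

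**Figure D3:**
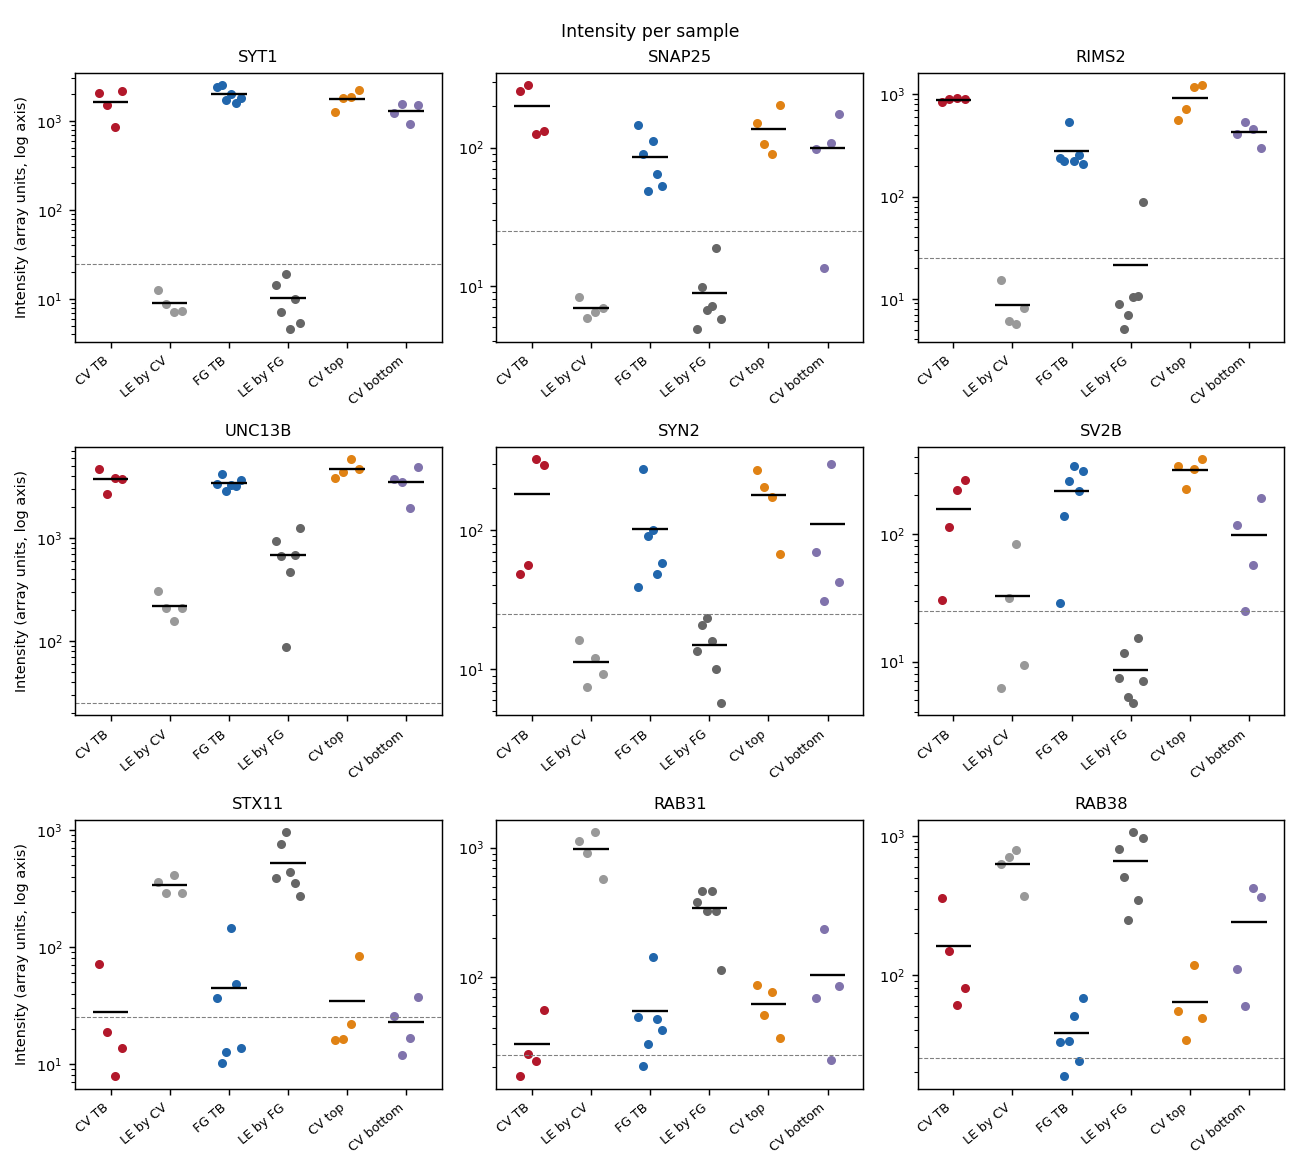
Intensity (array units, log axis) of 9 genes in each sample, by tissue, with the group mean as a black bar and 25 units as a dashed line. SYT1, SNAP25 and SYN2 lie wholly below the line in both LE groups, UNC13B lies above it everywhere, and the LE means of STX11, RAB31 and RAB38 lie above those of whole TB.

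RAB3 GTPases sit on secretory vesicles and pair with RIM proteins. RAB3B measured 138, 144, 182 and 210 units in CV TB and 6.38 to 13.1 units in LE. Its FG TB values ran from 153 through 268 to 362 units, against 5.80 through 8.65 to 11.5 units in LE. Neither papilla showed overlap (log2 4.03 ± 0.35 and 4.91 ± 0.28, adjusted p = 1.37e-06 and 1.65e-08; at least 6.64-fold and 10.3-fold). A second RAB3B probe set was called higher in CV (1.98 ± 0.53) and not in FG (0.54 ± 0.43).

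RAB3A, the abundant neuronal form, rose in FG TB although it is off the study's list. It averaged 562 ± 174 units there and 129 ± 97.5 units in LE, without overlap and higher in 6 of 6 animals (log2 2.39 ± 0.41, adjusted p = 0.000459, a 5.24-fold difference). In CV TB it averaged 434 ± 196 units against 194 ± 104 units and was not called, although all 4 animals were higher in TB (1.18 ± 0.50, adjusted p = 0.0800). RAB3D, the form of exocrine granules, had group means of 16.2 to 31.2 units in TB and LE and was not called.

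RAB3IP (Rabin8), an exchange factor first found through RAB3A and now known for RAB8, had its own pattern. It measured 666, 1192, 672.5 and 302 units in CV TB and 1321, 1056, 1070 and 1568 units in the LE beside it (log2 -0.96 ± 0.52, not called). Across FG TB it ran from 558 through 1095 to 1454 units and in LE from 112 through 331 to 638 units, and rose by 1.82 ± 0.42 (adjusted p = 0.00410), higher in 6 of 6 animals. The study's list names it by another, dimmer probe set, which was higher in both papillae (2.39 ± 0.73 and 1.88 ± 0.60). RAB3GAP1 and RAB3GAP2, the subunits of the enzyme that switches RAB3 off, were not called in either.

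Of the vesicle membrane and synapsin genes, SV2B and SYN2 rose in both papillae. SV2B, a synaptic vesicle glycoprotein, measured 30.5, 112, 220 and 266 units in CV TB and 6.25, 31.3, 82.8 and 9.48 units in LE, which overlapped, with TB higher in 4 of 4 animals (log2 2.59 ± 0.69, adjusted p = 0.00988). In FG TB it ran from 28.8 through 238 to 342 units and in LE from 4.75 through 7.24 to 15.3 units, without overlap (4.43 ± 0.56). Without animal 5 the CV call was lost (adjusted p = 0.0896).

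SYN2 (synapsin II), which tethers vesicles to the actin skeleton, measured 48.7, 56.1, 324 and 293 units in CV TB and 7.41 to 16.3 units in LE (log2 3.56 ± 0.59, adjusted p = 0.000416). It ran from 39.05 through 74.1 to 276 units in FG TB and from 5.74 through 14.8 to 23.25 units in LE (2.57 ± 0.48, adjusted p = 0.00101). TB and LE were apart in both papillae, although the TB samples themselves ranged widely. The second SYN2 probe set was called higher in both as well (2.76 and 2.77) and the third in neither (0.82 and -0.44). SYPL1, the synaptophysin-like protein of non-neuronal transport vesicles, had group means of 1322 to 1880 units in TB and LE and was not called, while its second probe set was called lower in CV TB (-1.69 ± 0.48, adjusted p = 0.0150) and not in FG TB.

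The 10 genes numbered from RAB30 to RAB39A contain RABs of other transport steps, and 8 were tested. RAB31, of trans-Golgi and endosomes, measured 17.0, 25.4, 22.3 and 55.6 units in CV TB and 1119, 907, 1310 and 576 units in LE, which did not overlap (log2 -5.11 ± 0.51, adjusted p = 5.48e-06, at least 30.5-fold lower). In FG it ran from 20.6 through 43.0 to 142 units in TB and from 113 through 352 to 464 units in LE, with overlap (-2.81 ± 0.42, adjusted p = 0.000151). The overlap came from the TB sample of animal 4 and the LE sample of animal 6. The size of the fall depended on the probe set. The second one changed by only -0.56 ± 0.31 in CV, where it was not called (adjusted p = 0.179), and by -0.73 ± 0.26 in FG (adjusted p = 0.0341), whereas the third was called lower in both (-3.58 ± 0.61 and -1.98 ± 0.50).

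RAB38, which carries cargo to melanosomes and related organelles, measured 358, 148, 60.4 and 79.8 units in CV TB and 627, 706, 794 and 367 units in LE (log2 -2.25 ± 0.48, adjusted p = 0.00268). Its FG TB values ran from 18.5 through 33.2 to 68.0 units and in LE from 249 through 659 to 1060 units (-4.07 ± 0.40, adjusted p = 3.14e-06). It did not overlap in either papilla, and RAB32, its close relative, fell too (-2.45 ± 0.60 in CV and -1.41 ± 0.49 in FG).

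RAB35, an endosome recycling RAB, measured 253, 743, 560 and 541 units in CV TB and 227, 88.7, 103 and 35.1 units in LE with its brightest probe set. Across FG TB it ran from 443 through 582 to 708 units and in LE from 17.1 through 79.7 to 258 units. That probe set, on the study's list, was called higher (log2 2.40 ± 0.61 in CV, lost without animal 5 at an adjusted p of 0.0696, and 3.20 ± 0.50 in FG). The next 2 RAB35 probe sets were called lower, by 1.54 ± 0.31 and 2.08 ± 0.55 in CV and by 1.02 ± 0.25 and 1.90 ± 0.45 in FG, so the gene has no single direction. RAB34 rose in FG TB (1.97 ± 0.70), and the probe set that the study names RAB30 and the annotation MTA2 rose in both papillae from LE means of 6.13 and 4.94 units to 51.8 and 35.0 units. The FG call of RAB34 was lost without animal 1, 2, 3 or 5 (adjusted p up to 0.105) and the CV call of RAB30 without animal 4 or 5 (up to 0.120).

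Between CV TB and FG TB, 2 of 56 genes were called, both lower in CV, where 0.507% of named genes were called lower and 0.57% higher. At an unadjusted limma p under 0.05, 11 differed, 7 of them higher in CV, where 1392 of 11055 named genes differed in either direction. SYT13 had 50.3 to 232 units in CV TB and 607, 1057 and 1574 units (lowest, median, highest) in FG TB, where LE had 5.94 to 16.5 units (FG TB against LE 6.60 ± 0.32, adjusted p = 2.87e-09). The groups did not overlap, each of the 4 animals that gave both was higher in FG, and the log2 difference was -3.15 ± 0.37 (adjusted p = 0.000815, lower in CV). The TB to LE change itself was smaller in CV than in FG by 2.41 ± 0.50 (adjusted p = 0.0397), a call lost when any 1 of the 6 animals was left out (adjusted p of 0.0618 to 0.174).

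STX12 (also called syntaxin 13), a SNARE of recycling endosomes, moved in opposite directions in the papillae. It measured 60.6, 24.7, 21.8 and 26.1 units in CV TB and 121, 84.7, 88.8 and 119 units in the LE beside them. The FG TB samples ran from 93.4 through 172 to 216 units and in LE from 23.7 through 57.2 to 63.1 units. The groups did not overlap in either papilla, and all 4 CV animals were lower and all 6 FG animals higher in TB. It fell by 1.75 ± 0.41 in CV (adjusted p = 0.00474) and rose by 1.67 ± 0.34 in FG (adjusted p = 0.00153). The difference between these changes was -3.42 ± 0.53 on the log2 scale (adjusted p = 0.00881), and 2 of 56 genes were called in this contrast, STX12 and SYT13, against 0.968% of named genes. STX12 was chosen for full values after they were seen.

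The second STX12 probe set showed the same split in the contrast of the 2 changes. It measured 11.3, 42.4, 10.1 and 9.83 units in CV TB and 170, 109, 121 and 208 units in its LE (log2 -3.32 ± 0.63), while FG TB at 85.7 units and its LE at 48.3 units were not called apart (0.59 ± 0.52). The difference of the changes was -3.90 ± 0.82 (adjusted p = 0.0397). The difference of changes called in the brighter probe set was lost without animal 3, 4 or 5, with an adjusted p up to 0.0835, and so was its direct CV to FG difference of -2.24 ± 0.39 (adjusted p = 0.0148, up to 0.158 without 1 animal).

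**Figure D4:**
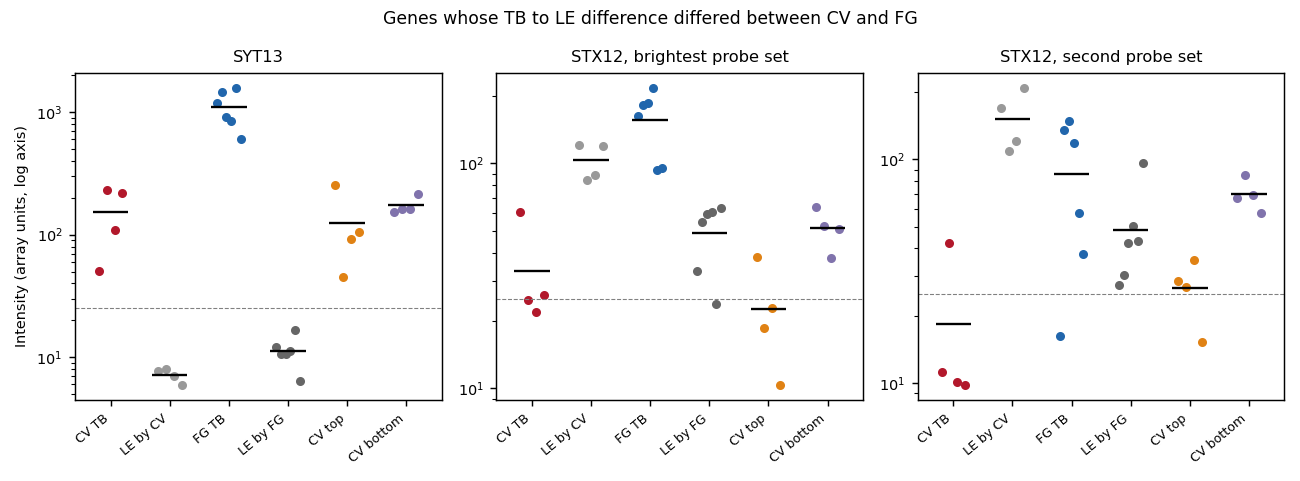
Intensity per sample (log axis, black bar the group mean, dashed line 25 units) of SYT13 and of both STX12 probe sets in the 6 tissues. SYT13 is above LE in both papillae and highest in FG TB, whereas the brighter STX12 probe set is below its LE in CV TB and above it in FG TB.

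The other 9 genes under an unadjusted p of 0.05 between CV TB and FG TB were not called. RAB38 had the largest of these differences, higher in CV TB in 4 of 4 animals though the groups overlapped (log2 1.96 ± 0.46, 95% interval 0.96 to 2.95, adjusted p = 0.0681). RIMS2 was higher in CV TB in 4 of 4 animals without overlap (log2 1.88 ± 0.56, 95% interval 0.68 to 3.09, adjusted p = 0.159), and SNAP25 was higher in 4 of 4 (1.18 ± 0.43, interval 0.24 to 2.11, adjusted p = 0.286). SYT4 (1.79), VAMP4 (1.54), STX5 (1.20) and STX10 (1.07) were higher in CV TB in 4 of 4 animals, and SYT11 (-1.21) and RAB32 (-1.40) were lower in 3 of 4. The second VAMP4 probe set lay the other way (-2.03 ± 0.59, not called). The type I cell sums given above did not overlap between CV TB and FG TB, and their part in these differences was not tested. For SYT1 the difference was -0.47 with an interval of -1.22 to 0.29, and for UNC13B 0.35 with an interval of -0.62 to 1.33. RAB3IP had the next largest difference of TB to LE changes after STX12, at -2.78 ± 0.67, and missed the threshold (adjusted p = 0.0670).

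The LE beside CV and beside FG papillae gave 0 calls among the 56 genes with limma, where 0.977% of named genes were called, and 0 with the methods' t-test after adjustment. At an unadjusted p under 0.05 limma gave 13 and that t-test 7, where limma gave 1738 of 11055 named genes. RAB3IP came nearest, at 1056 to 1568 units beside CV and 112 to 638 units beside FG (log2 2.11 ± 0.50, adjusted p = 0.0557), with no overlap and 4 of 4 animals higher beside CV. STX8 followed (1.42 ± 0.35, adjusted p = 0.0674).

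In the CV fractions, 45 genes were tested and 2 were called, both higher in the top, where 1.96% of named genes were called higher and 1.43% lower. At an unadjusted p under 0.05, limma gave 8 higher and 3 lower, where 2059 of 9906 named genes were under it in either direction. The methods' t-test after adjustment gave 0. RAB3B measured 365, 264, 86.5 and 344 units in the top and 123, 87.4, 35.7 and 146 units in the bottom of animals 7 to 10. The groups overlapped through animal 9, yet each animal was higher in the top (log2 1.42 ± 0.24, adjusted p = 0.0406). RAB3IP measured 663, 1127, 691 and 855 units in the top and 180, 625, 144 and 199 units in the bottom, without overlap (1.77 ± 0.32, adjusted p = 0.0435). Both calls were lost when any 1 of the 4 animals was left out, with adjusted p of 0.0839 to 0.191 for RAB3B and 0.105 to 0.161 for RAB3IP, and in the fit without the animal as a block (adjusted p = 0.204 and 0.0608). The second RAB3B probe set (0.89 ± 0.26) and the study's own RAB3IP probe set (-0.33 ± 0.33) were not called.

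SV2B had a larger difference and missed the threshold, at 337, 225, 322 and 385 units in the top and 117, 24.9, 56.7 and 192 units in the bottom (log2 2.05 ± 0.41, adjusted p = 0.0536). RIMS2 was higher in the top of all 4 animals (924 ± 330 against 427 ± 98.8 units, 1.07 ± 0.35) without overlap, and was not called. SYT1 (1782 against 1295 units), SNAP25 (138 against 99.2 units) and UNC13B (4732 against 3557 units) were measured in both fractions, with log2 differences of 0.46, 0.88 and 0.47 and intervals that took in 0. In SNAP25, 1 bottom sample stood at 13.4 units (animal 8) and the others at 98.0 to 177 units. STX12 was lower in the top of 4 of 4 animals (-1.32 ± 0.35, not called; second probe set -1.45 ± 0.27, adjusted p = 0.0497).

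Other cell genes differed between the fractions as well. The 7 type II genes summed to 16160 to 19370 units in the top and 8460 to 11440 units in the bottom. The 7 type III genes summed to 2215 to 3138 units in the top and 789 to 1999 units in the bottom, without overlap and higher in the top of 4 of 4 animals, with 1 of 4 tested (PKD2L1) called higher. The 6 fibroblast genes summed to 627 to 1804 units in the top and 4555 to 6116 units in the bottom, with 4 of 5 tested fibroblast genes lower in the top. The 5 nerve and Schwann cell genes summed to 86.7 to 159 units in the top and 110.2 to 281 units in the bottom. The part of any of these in the RAB3B and RAB3IP differences was not tested. The median log2 difference of the 45 genes was 0.45, where that of all named genes was 0.13. It was 0.885 for the 17 on the study's list, which was drawn partly from the fractions against LE. For the 28 off the list it was 0.091, where that of all named genes off the list was 0.08.

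**Figure D5:**
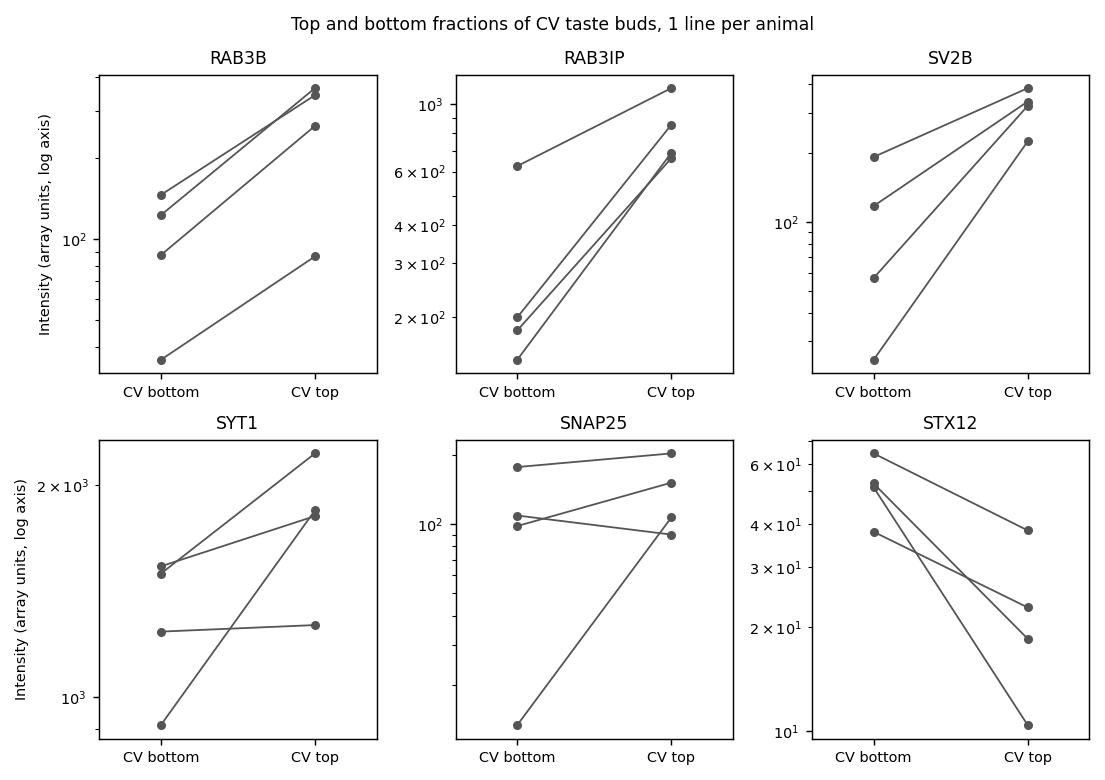
Intensity (log axis) in the bottom and top fraction of CV TB for 6 genes, 1 line for each of 4 animals. All 4 lines rise for RAB3B, RAB3IP and SV2B and fall for STX12, and SNAP25 shows 1 low bottom sample at 13.4 units.

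Set beside the whole buds with no test, the fractions gave these levels. SYT1 averaged 1635 units in CV TB, 1782 units in the top and 1295 units in the bottom, and UNC13B 3743, 4732 and 3557 units. SYT13 averaged 152, 123 and 173 units in these 3 tissues of the CV papilla. STX11 averaged 28.1, 34.7 and 22.9 units and RAB31 30.1, 61.8 and 103 units.

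Of 44 other genes of the vesicle cycle that the symbol rule left out, 32 had a probe set and 24 were tested in the first set, with 9 higher and 5 lower in CV TB and 8 higher and 6 lower in FG TB, where 24.9% and 16.8% of all named genes were higher and lower in CV TB and 26.9% and 19.3% in FG TB. The 8 that stand on the study's list account for 8 of the genes that rose in each papilla. They include the dense-core priming factors CADPS (141 units in CV TB and 407 units in FG TB against 6.41 and 6.48 units in LE) and CADPS2 (4940 and 6020 units against 69.0 and 299 units), the RIM-binding RIMBP2, the vesicle proteins SYNGR3 and SCAMP5 and the presynaptic protein SNCB. Off the list, SYNPR (synaptoporin) rose in CV TB (1477 against 204 units, log2 2.81 ± 0.48), and RAB27B, the granule RAB that binds the SYTL proteins, fell from 489 to 17.7 units in CV and from 417 to 11.5 units in FG. Of the genes that load vesicles with transmitter, SLC17A9 and SLC18A3 fell in FG TB (-0.84 and -0.64), and SLC18A2 was not called in either papilla.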

How the data were processed

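The authors hybridised biotin-labelled cDNA, amplified from the total RNA of 28 laser-captured samples of 10 animals, to rhesus arrays and normalized all arrays together with GC-RMA in GeneSpring, with versions that the sources used here do not state. Intensities were deposited on a linear scale, and 0 value columns lacked a sample. RNA of Macaca fascicularis was read by probes of another macaque, so a brighter probe set need not mean more RNA, and no test was made between probe sets. Levels across probe sets were used only to pick 1 per gene, to describe them as bright or dim, and in the marker sums. log2 intensity was tested in R 4.3.3 with limma 3.58.1, the 20 samples of the first set in 1 fit and the 8 fractions in another, over probe sets that reached 25 units in 4 or more samples of the fit, with Benjamini-Hochberg adjustment and a threshold of 0.05. The animal was a fixed block because the labels give samples of the same animal; deviations from group means correlated at a mean r of 0.05 to 0.12 within animals and -0.04 to -0.01 between them. Each tissue of an animal is 1 pool, so the number of animals limits the precision. "At least" folds are ratios of mean log2 values after values under 25 units were raised to 25.

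The members and gene lists were chosen with earlier results of these data known. Genes were named by rule: 41 core release genes (27 matched), members on the study's list, and the 8 called members with the largest change per comparison. Values per sample were printed for the 15 with the largest called changes; STX12, RAB3IP and VAMP2 were added after their values were seen, as were single genes named outside the rule. Alternatives were the fit without the block, no filter, values raised to 25, centred arrays, the methods' paired t-test (p of at most 0.05 and a 5-fold ratio, and after adjustment), the next brightest probe set, all LE as 1 group, 1 fit of all 28 samples in which the animal was a random block, and each animal left out. The script was tested on simulated data with known changes. Sequences are not shown. Some genes counted in the totals are not reported here by name.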

Additional observations from a re-analysis of the deposited data

Results flagged for a closer look

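Among 92 groups of 4 to 6 samples examined for the genes with values per sample, 5 held a sample far from the others of its group; chance alone flags about 1 in 20 groups. In LE beside FG papillae, animal 6 had 113 units of RAB31, where the others had 324 to 464 units, and 87.9 units of RIMS2, where the others had 5.02 to 10.6 units. In FG TB, animal 3 had 534 units of RIMS2 against 210.4 to 256 units in the others, and animal 1 had 28.8 units of SV2B against 139 to 342 units. In the bottom fraction, animal 10 had 215 units of SYT13 against 154 to 162 units.

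For 2 genes the TB to LE change differed between the papillae by the test of the difference itself. For STX12 the CV change minus the FG change was -3.42 on the log2 scale, with a fall in CV TB and a rise in FG TB. For SYT13 it was -2.41, with a rise in both that was smaller in CV TB. In limma, the SYT13 call was lost when any 1 of the 6 animals was left out (adjusted p of 0.0618 to 0.174). That of STX12 was lost without animal 3, 4 or 5 (adjusted p up to 0.0835).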

How the results depend on the processing

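Of 204 named results tested, 51 were called. Of these, 12 were called in every alternative with an adjusted p in which they were tested, the methods' t-test after adjustment included. That t-test alone lost 32 of the 49 called results it covered. By the methods' t-test, the 13 genes higher and 13 lower in CV TB became 8 and 4 at the methods' threshold and 1 and 2 after adjustment, and the 18 higher and 18 lower in FG TB became 9 and 4 at the threshold, and 12 and 10 after adjustment. Leaving out 1 animal gave 9 to 14 higher and 10 to 13 lower in CV TB, and 16 to 18 higher and 12 to 17 lower in FG TB. The 2 calls between CV TB and FG TB became 1 and 0 by that t-test at its threshold and after adjustment, 1 with the next brightest probe sets and 1 to 2 without 1 animal. In counts with the next brightest probe sets, the 43 genes with 1 probe set kept it. The CV to FG call left there was SYT13, which has only 1 and was not measured again. The second STX12 probe set was not called (limma adjusted p = 0.155). The 2 calls in the difference of changes became 1 with centred arrays and 0 to 1 without 1 animal. Between the LE groups, 0 calls became 1 with no replicate block and 2 with values raised to 25. The 2 calls between the fractions became 0 with no replicate block, with no filter, with centred arrays and by the t-test either way. They also became 0 with all 28 samples and without any 1 animal. With the next brightest probe sets neither RAB3B nor RAB3IP was called, and the 1 call was STX12, lower in the top. The next brightest probe set turned RAB35 to -1.54 in CV and -1.02 in FG and VAMP2 to 3.21 in CV and 3.20 in FG. The fit without the replicate block gave 13 higher and 12 lower in CV TB and 18 higher and 17 lower in FG TB. The causes were not tested.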
